A study of Arabidopsis thaliana with 12 samples.

Results

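The genes described here are those whose transcript level was lower in every pete2 sample than in any wild-type (WT) sample of Arabidopsis thaliana. The samples were 6 of total RNA from the pete2 mutant, numbered 1 to 6, and 6 from WT plants with the same numbers. Both groups were of ecotype Columbia 0 and grown on soil, and their RNA was measured on an array of 3439 probes. The labels state that pete2 lacks 1 plastocyanin isoform. They give no allele, age, organ or growth stage, and they do not say whether the samples of a group came from separate plants, so the spread between samples may be technical. Samples with consecutive numbers (1 with 2, 3 with 4, 5 with 6) were close to each other in some members, and whether they are repeat measurements is not labelled. If they are, each group holds 3 independent samples and the standard errors (SE) over 6 are too small. No marker of an organ was set against the samples, because no organ is labelled.

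The members were chosen from the measured values themselves. Intensities were quantile normalized, which gives all samples the same distribution, and values deposited as 0 were kept at 0. A probe was taken when it listed exactly 1 gene and its highest pete2 value lay below its lowest WT value. Of the 692 probes with a single gene, 40 met this rule. AT3G09250 was then left out by name, as were 6 other genes, none of which met the rule, and 39 members remained, each from 1 probe and 1 gene. Because the pete2 and WT values chose the members, no test of that difference is given for them, and the values that follow are a description. In bulk RNA, fewer cells of a type and less RNA per cell cannot be told apart.

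Plastocyanin is a copper protein of the thylakoid lumen that carries electrons from the cytochrome b6f complex to photosystem I. Arabidopsis has a pair of plastocyanin genes, PETE1 and PETE2, and the PETE2 form is the more abundant in leaves. None of the 8 members with a name encodes a component of this chain. These 8, which carry a name in the RefSeq annotation, belong to calcium and glutamate signalling (CML30, GLR2.7), auxin and abscisic acid (IAA31, UGT74D1, XERICO), drought (DI21), ascorbate synthesis (GLDH) and reproductive development (SPL). The other 31 are known there by locus only. The annotation used here held no product descriptions, so no role is given here for these 31.

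Non-overlap of this kind was found for 166 of the 3321 probes that were above 0 in at least 1 sample, 5% of them. Among the 665 such probes with a single gene it was 6.02%, among 846 probes with several genes 5.08% and among 1810 unlisted probes 4.59%. In the opposite direction, with every pete2 value above every WT value, the share was 3.31% of all 3321 probes, and 19 single-gene probes (2.86%) were among them. The rule used this contrast, so nothing is read from these shares. Of the 39 members, 27 were above 0 in all 12 samples and 12 were listed at 0 in 1 or more pete2 samples. The rule was met by 8.36% of the 335 single-gene probes above 0 in all samples and by 3.64% of the 330 with a zero in some samples. No member could be listed at 0 in a WT sample, because the rule puts every WT value above the highest pete2 value.

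What a deposited value of 0 stands for is not stated in the sources used here. Most pete2 samples held more such values than the WT samples did. The share at 0 was 17.2%, 17.1%, 21.6%, 21.5%, 30.7% and 28.6% of all probes in pete2 samples 1 to 6, and it ran from 15.7% to 17.8% in the WT samples. Total deposited intensity ran from 2857 to 3180 in pete2 and from 2795 to 3358 in WT. Pete2 samples 5 and 6 therefore stood apart in their zeros. Without both of them all 39 members still met the rule, as fewer samples make it easier to meet, and the median log2 difference of the members above 0 was -1.51, the same value as with them.

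Among the 27 members above 0 in every sample, the median log2 difference, pete2 minus WT, was -1.51, with single genes between -4.67 and -0.69. The median over all 335 single-gene probes above 0 in every sample was 0.04. The SE of these 27 differences had a median of 0.252 over 6 samples a group, and of 0.332 over the 3 averages of consecutive numbers, where it was larger for 24 of the 27. Expressed as fold, 2 members were 4-fold or more lower in pete2, 21 were between 2-fold and 4-fold lower, and 4 were less than 2-fold lower. The distance between the groups was small beside these differences. The lowest WT value was at least 1.5 times the highest pete2 value in 11 of the 27.

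**Figure D1:**
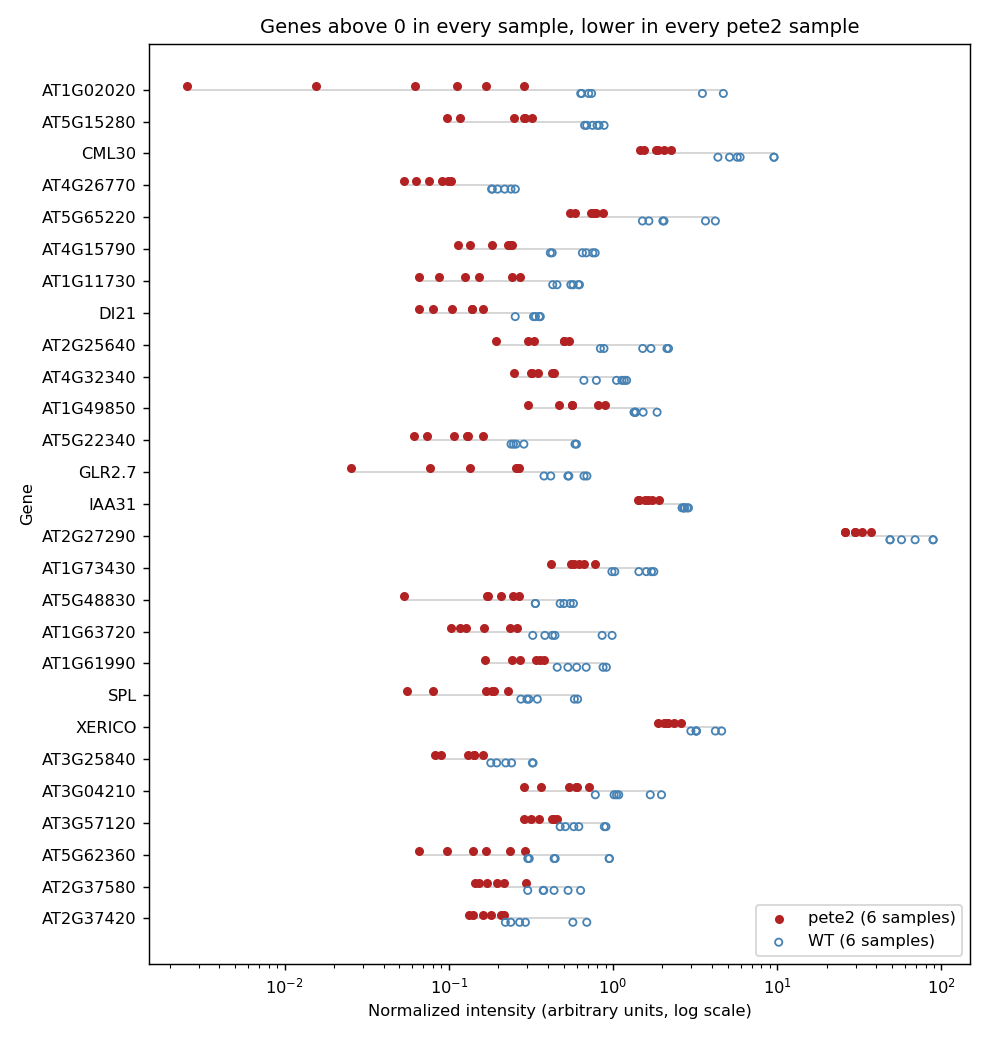
Normalized intensity (log scale, arbitrary units) of the 27 members above 0 in every sample, with 6 pete2 samples as filled points and 6 WT samples as open points in each row. Genes run from the widest separation at the top (AT1G02020, lowest WT 2.23 times the highest pete2) to the narrowest at the bottom (AT2G37420, 1.01 times), and in every row the filled points lie left of the open ones.

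CML30 (AT2G15680) encodes a calmodulin-like protein, of a family of calcium sensors. Its normalized intensity was 1.83, 2.04, 1.46, 1.54, 2.25 and 1.87 in pete2 samples 1 to 6, against 5.70, 5.94, 5.12, 4.35, 9.55 and 9.55 in WT samples 1 to 6. All pete2 samples lay within a narrow band, while WT samples 5 and 6 were well above the other WT samples. As deposited, WT samples 5 and 6 had 7.39 and 7.27, nearer to the 5.21 to 6.18 of the other WT samples. The log2 difference was -1.82 ± 0.216 (SE, n = 6 each), and the lowest WT value was 1.94 times the highest pete2 value. It had the widest separation among the named genes that were above 0 in every sample.

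GLR2.7 (AT2G29120) belongs to the glutamate receptor family, whose plant members form cation channels in membranes. Its intensity was 0.0253 at the lowest, 0.195 at the median and 0.268 at the highest in pete2, against 0.380, 0.534 and 0.693 in WT. Within pete2 it varied widely, with a coefficient of variation (CV, the SD as a percentage of the mean) of 62.3%, against 23.5% in WT. The log2 difference of -2.02 ± 0.573 (SE, n = 6 each) accordingly had one of the larger errors. After normalization pete2 sample 2 held the lowest value, while pete2 sample 1 had 0.255, and without pete2 sample 2 the difference was -1.57. As deposited, pete2 sample 5 was the lowest at 0.0182, and pete2 sample 2 had 0.0367.

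IAA31 (AT3G17600) encodes a member of the Aux/IAA family, short-lived nuclear repressors of auxin-responsive genes. It was 1.73, 1.90, 1.56, 1.63, 1.45 and 1.41 in pete2 samples 1 to 6, against 2.70, 2.73, 2.83, 2.88, 2.70 and 2.63 in WT samples 1 to 6. The log2 difference was -0.78 ± 0.0684 (SE). After normalization the CV was 11.3% in pete2 and 3.35% in WT, and as deposited it was 17.8% in pete2 and 16.6% in WT. When each sample was divided by its median instead, the 2 groups overlapped. A second probe lists IAA31 together with 2 other genes, and there the groups overlapped, with a median of 0.146 in pete2 and 0.376 in WT.

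XERICO (AT2G04240) encodes a small RING-type zinc finger protein that raises abscisic acid levels when overexpressed. It ranged from 1.87 to 2.60 in pete2, with a median of 2.14, and from 2.98 to 4.59 in WT, with a median of 3.21. This was the smallest difference among the 27, at -0.69 ± 0.123 on the log2 scale (SE, n = 6 each), or 1.62-fold lower in pete2. With samples divided by their medians its groups overlapped too.

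DI21 (AT4G15910) is named for its induction by drought. Its intensity was 0.0655 at the lowest, 0.121 at the median and 0.162 at the highest in pete2, against 0.254, 0.346 and 0.361 in WT. After normalization the WT samples were close together except for sample 4, which was the lowest. The log2 difference was -1.59 ± 0.222 (SE, n = 6 each).

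SPL (AT4G27330), also called SPOROCYTELESS or NOZZLE, encodes a nuclear protein required for the formation of sporocytes in anthers and ovules. Its level ran from 0.0553 to 0.230 with a median of 0.176 in pete2, and from 0.274 to 0.608 with a median of 0.326 in WT. The log2 difference was -0.69 in samples 1 and 2, -0.67 in samples 3 and 4, and -3.16 in samples 5 and 6. Most of its mean difference of -1.51 ± 0.393 (SE) thus came from samples 5 and 6, where pete2 was lowest and WT highest. As deposited, pete2 samples 5 and 6 had only 0.0201 and 0.00480, close to 0, and these samples held the most zeros over the array. The size of the difference there is therefore uncertain. With samples divided by their medians the difference was -2.15.

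AT1G02020 had the largest log2 difference, -4.67 ± 1.17 (SE, n = 6 each), and the widest separation. Its values were 0.00253, 0.0156, 0.168, 0.0626, 0.285 and 0.111 in pete2 samples 1 to 6, against 0.740, 0.710, 0.643, 0.636, 3.50 and 4.70 in WT samples 1 to 6. Both groups were spread widely, with a CV of 99.02% in pete2 and 99.1% in WT, the highest among these 27 genes. Part of its size came from pete2 samples 1 and 2, where it was lowest, and part from WT samples 5 and 6, where it was highest. As deposited, pete2 sample 1 had 0.000459, close to 0. Without pete2 sample 1 the difference was -3.86, and without pete2 samples 5 and 6 it was -5.44. In samples 1 and 2 the log2 difference was -6.85, against -2.64 in samples 3 and 4 and -4.51 in samples 5 and 6. The lowest WT value was nevertheless 2.23 times the highest pete2 value.

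AT2G27290 was by far the brightest member. Normalized, it was 25.99 at the lowest, 29.6 at the median and 36.99 at the highest in pete2, against 48.6, 63.1 and 88.96 in WT. As deposited the groups overlapped, since pete2 sample 5 had 43.4 while WT samples 1 and 2 had 38.4 and 41.8. Its separation therefore depended on scaling. The log2 difference was -1.11 ± 0.182 (SE) after quantile normalization, -0.29 with samples divided by their medians and -0.81 as deposited.

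AT5G15280 was 0.117, 0.0981, 0.291, 0.288, 0.320 and 0.248 in pete2 samples 1 to 6, against 0.882, 0.750, 0.671, 0.691, 0.822 and 0.799 in WT samples 1 to 6. After normalization the WT samples were tight and the pete2 samples were spread, with samples 1 and 2 lowest, at a CV of 42.1% in pete2 and 10.5% in WT. As deposited the CV was 20.3% in pete2 and 10.2% in WT, and pete2 sample 6 was the lowest. Next to AT1G02020 it had the widest separation, with a ratio of 2.10 between the lowest WT and the highest pete2 value and a log2 difference of -1.89 ± 0.310 (SE).

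AT5G65220 had a median of 0.748 in pete2 and 2.03 in WT, and WT samples 5 and 6 were the highest at 3.66 and 4.20. AT4G15790 had medians of 0.207 in pete2 and 0.668 in WT, AT1G11730 had 0.139 and 0.563, and AT4G26770 had 0.0835 and 0.208. In these 4 genes the lowest WT value was 1.73, 1.72, 1.59 and 1.76 times the highest pete2 value, in the order named. AT4G26770 was the dimmest member above 0 in all samples, yet its WT values spread by a CV of only 13.9%.

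AT2G25640 had medians of 0.415 in pete2 and 1.61 in WT, a log2 difference of -1.95 ± 0.342 (SE). AT4G32340 had 0.334 in pete2 and 1.09 in WT, and AT1G49850 had 0.559 in pete2 and 1.37 in WT. AT5G22340 had 0.119 in pete2 and 0.272 in WT, and its WT samples 5 and 6, at 0.599 and 0.586, were more than double every other WT sample.

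The 10 members next in order of separation had ratios between 1.27 and 1.04 and are named to account for all members, not by the rule for named genes. SPL and XERICO, described above, are among them. The others are AT1G73430, AT5G48830, AT1G63720, AT1G61990, AT3G25840, AT3G04210, AT3G57120 and AT5G62360. Their medians ran from 0.137 (AT3G25840) to 0.603 (AT1G73430) in pete2 and from 0.232 to 1.52 in WT for the same genes. Their log2 differences lay between -0.78 (AT3G57120) and -1.76 (AT5G62360). That of AT5G48830 was -1.44, and -2.06 with samples divided by their medians.

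The 12 members listed at 0 in pete2 were dimmer. Their WT medians had a middle value of 0.233, against 0.643 for the 27 members above 0 and 0.130 over all 665 single-gene probes tested. No fold is given against a value of 0. The zeros were 26 of 234 member values in pete2, and 23 of them lay in pete2 samples 3 to 6. In pete2 samples 1 to 6, 1, 2, 5, 3, 8 and 7 members were at 0, which is 2.56% of members in sample 1 and 20.5% in sample 5. Over all single-gene probes the share at 0 was 17.1% in sample 1 and 32.4% in sample 5. The samples with more zeros among members were thus largely those with more zeros over the array, and the part this plays was not tested.

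**Figure D2:**
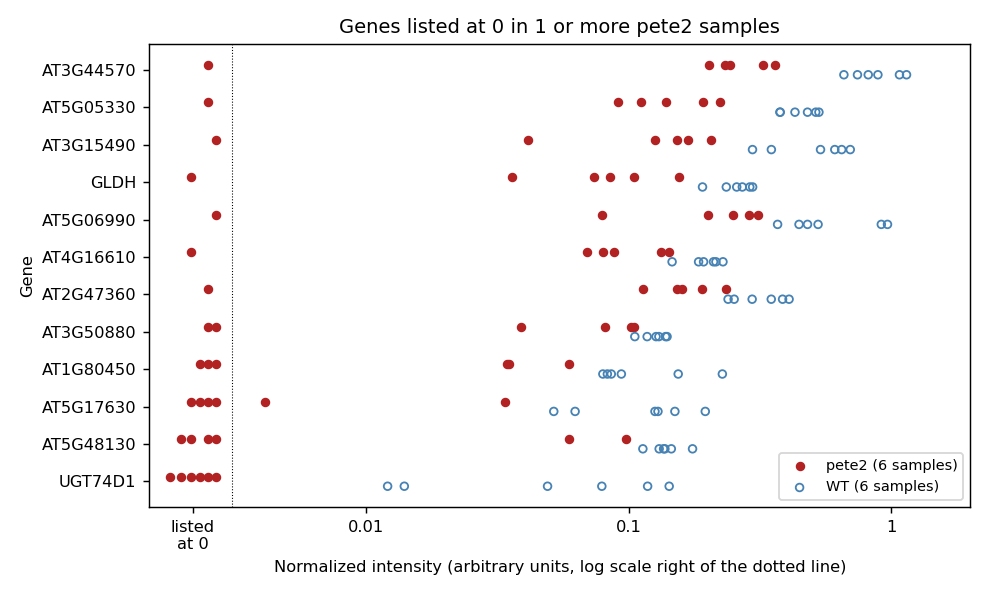
Normalized intensity (log scale, arbitrary units) of the 12 members listed at 0 in pete2, with 6 pete2 samples filled and 6 WT samples open in each row. Values listed at 0 stand left of the dotted line, where position has no scale; 7 genes have 1 pete2 sample there, 4 have 2 to 4, and UGT74D1 has all 6.

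UGT74D1 (AT2G31750) encodes a UDP-glucosyltransferase that can attach glucose to auxins. It was listed at 0 in all 6 pete2 samples, against 0.0492, 0.143, 0.118, 0.0791, 0.0121 and 0.0140 in WT samples 1 to 6. It was the only member at 0 throughout pete2. Its WT values were themselves among the lowest of the members, and WT samples 5 and 6 were the lowest of all, opposite to most other members.

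GLDH (AT3G47930) encodes L-galactono-1,4-lactone dehydrogenase, the mitochondrial enzyme of the last step of ascorbate synthesis. It was 0.0359, 0.0737, 0, 0.0852, 0.105 and 0.156 in pete2 samples 1 to 6, against 0.191, 0.271, 0.236, 0.258, 0.289 and 0.297 in WT samples 1 to 6. Only pete2 sample 3 was at 0, and the lowest WT value was 1.23 times the highest pete2 value. As deposited that ratio was 1.87.

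AT3G44570 was the brightest of the 12. It was 0.325, 0.361, 0.232, 0.244, 0 and 0.202 in pete2 samples 1 to 6, against 0.743, 0.889, 1.07, 1.14, 0.660 and 0.817 in WT samples 1 to 6. The ratio between the lowest WT and the highest pete2 value was 1.83. As deposited, its pete2 values above 0 were spread more widely, from 0.0976 in sample 6 to 0.427 in sample 2. AT5G05330 was also at 0 in pete2 sample 5, with a pete2 median of 0.125 and a WT median of 0.455, and a ratio of 1.69. Its deposited pete2 values above 0 ran from 0.0271 in sample 6 to 0.188 in sample 1.

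AT3G15490 and AT5G06990 were at 0 in pete2 sample 6, with medians of 0.140 and 0.225 in pete2, against 0.573 and 0.503 in WT for the same genes. AT2G47360 was at 0 in pete2 sample 5 and AT4G16610 in pete2 sample 3. AT3G50880 was at 0 in pete2 samples 5 and 6. For AT2G47360, AT4G16610 and AT3G50880 the groups were barely apart, with ratios of 1.02, 1.03 and 1.003. In 6 of the 12 genes the zeros lay only in pete2 samples 5 or 6, so without those samples these genes are above 0 throughout.

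AT1G80450, AT5G17630 and AT5G48130 were at 0 in 3 or 4 pete2 samples. AT1G80450 was 0.0346, 0.0352 and 0.0593 in pete2 samples 1 to 3 and at 0 in samples 4 to 6, against 0.0799 to 0.228 in WT. AT5G17630 was 0.00413 and 0.0338 in pete2 samples 1 and 2 and at 0 in the other 4, against 0.0519 to 0.196 in WT. AT5G48130 was 0.0976 and 0.0591 in pete2 samples 1 and 4 and at 0 in the others, against 0.113 to 0.175 in WT. The WT medians of AT1G80450, AT5G17630, AT3G50880 and UGT74D1 lay under the 0.130 that is the middle of all single-gene probes tested. No member above 0 in every sample lay so low.

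The separation was narrow at the edge of the rule. The members just inside it were AT3G50880, AT2G37420 and AT2G37580, where the lowest WT value was 1.003, 1.01 and 1.02 times the highest pete2 value. AT2G37420 had 0.218 as its highest pete2 and 0.221 as its lowest WT value, and AT2G37580 had 0.297 and 0.302. Just outside were AT5G49590, AT5G24690 and AT4G39690, with ratios of 0.984, 0.981 and 0.961. AT5G49590 reached 0.548 in pete2 against a lowest WT value of 0.539, and AT4G39690 reached 2.81 against 2.70. AT5G24690 was at 0 in 4 pete2 samples and reached 0.102 in another, against a lowest WT value of 0.0999.

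**Figure D3:**
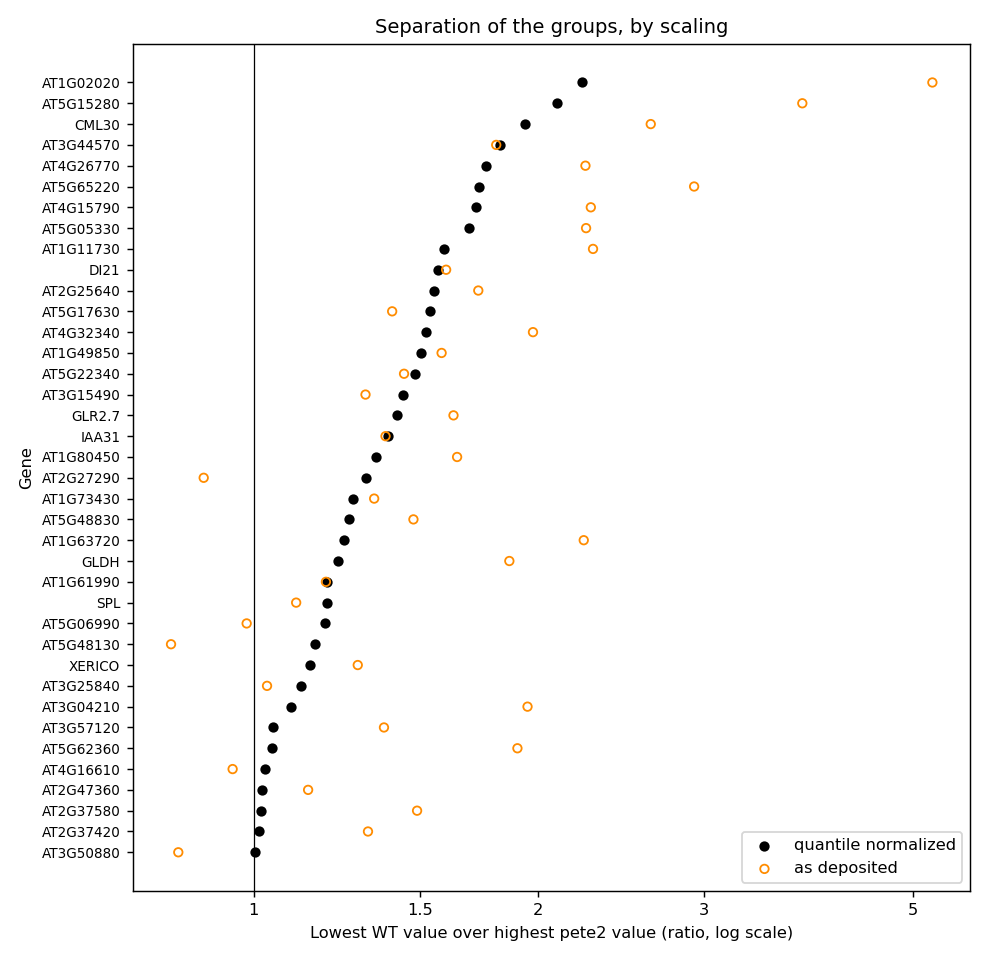
Ratio of the lowest WT to the highest pete2 value (log scale) for the 38 members with a pete2 value above 0, with filled points after quantile normalization and open points as deposited. All filled points lie above 1, from 1.003 to 2.23, while 5 open points lie below 1.

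How far the groups stood apart changed with scaling. On the intensities as deposited, 34 of the 39 members met the rule. The exceptions were AT2G27290, AT5G06990, AT4G16610, AT3G50880 and AT5G48130, with ratios of 0.885, 0.983, 0.950, 0.832 and 0.817. With each sample divided by its median, 33 of the 39 met it, and IAA31, XERICO, AT3G04210, AT2G27290, AT4G16610 and AT3G50880 did not. Of the 27 members above 0 in every sample, 23 met the rule under quantile normalization, as deposited, with sample medians and with cyclic loess alike. The log2 difference of each of these 27 was negative under all 4. Without scaling, the median over 331 single-gene probes above 0 in all samples, left-out names not counted, was -0.54, and the members' median of -2.07 lay -1.53 from it, against -1.56 after quantile normalization.

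The members differed from one another in which samples held the difference. Samples of the same numbers are set side by side here without taking the numbers as pairs. The median log2 difference of the 27 members above 0 was -1.59 in samples 1 and 2, -1.23 in samples 3 and 4, and -1.80 in samples 5 and 6. For all 335 single-gene probes above 0 these medians were 0.03, 0.11 and 0.06. Of the 27 members, 10 had their most negative value in samples 1 and 2, 17 in samples 5 and 6, and 0 in samples 3 and 4. The smallest difference of all was that of AT3G57120 in samples 3 and 4, at -0.15.

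**Figure D4:**
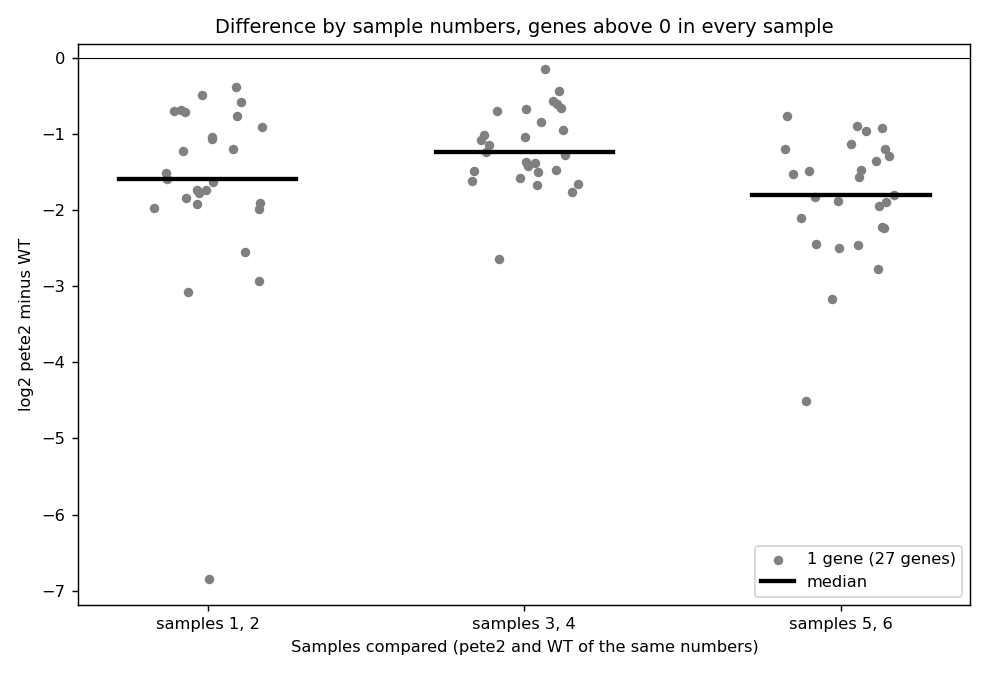
Log2 difference, pete2 minus WT, of the 27 members above 0 in every sample, computed from samples 1 and 2, 3 and 4, and 5 and 6 of both groups, with 1 point per gene and a bar at the median. All points lie below 0, which the choice of members fixed in advance, and the bars lie at -1.59, -1.23 and -1.80.

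WT samples 5 and 6 were often the highest of the WT samples. Both lay above all of WT samples 1 to 4 in 24 of the 39 members, 61.5%, against 27.6% of the 626 other single-gene probes tested. As deposited the shares were 71.8% of members and 36.9% of the others. The others include probes with zeros in WT, which no member has. When only probes above 0 in every sample were counted, the normalized shares were 63.0% of 27 members and 32.5% of 308 others. As deposited these were 66.7% and 42.9%. The shares that follow are after normalization. Among the lower probes with several genes, which are no members, the share was 44.2% of 43, and among the unlisted lower probes 45.8% of 83. Among the 110 probes higher in every pete2 sample it was 23.6%. The rule sets a lower bound on WT values and none above, so this pattern is not independent of it and was not tested.

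In size, WT samples 5 and 6 averaged 1.56 times WT samples 1 to 4 at the median of the 27 members above 0, against 1.07 times for the 308 other single-gene probes above 0. Within pete2 the corresponding medians were 1.13 and 1.04. These ratios are after normalization, and the median within pete2 as deposited was not computed. For some members the direction within pete2 changed with scaling, and for others it did not. AT4G26770 had a normalized ratio of 1.43 within pete2. As deposited, its pete2 samples 5 and 6 had 0.0307 and 0.0345, below the 0.0472 to 0.0924 of pete2 samples 1 to 4. The ratio within WT was largest for AT1G02020, at 6.01, followed by AT5G62360 at 2.54 and AT2G37420 at 2.47. Among the 39 members, 6 had lower means in WT samples 5 and 6 than in samples 1 to 4, and these were AT4G26770, AT4G32340, GLR2.7, IAA31, AT3G44570 and UGT74D1. The members' levels thus varied within WT as well as between the groups. The median CV of the 27 was 29.2% in pete2 and 27.1% in WT, and that of all 335 single-gene probes above 0 was 39.9% and 37.9% in the same order. The rule favours probes with a small spread within groups, so the lower CV of the members is not independent of it.

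**Figure D5:**
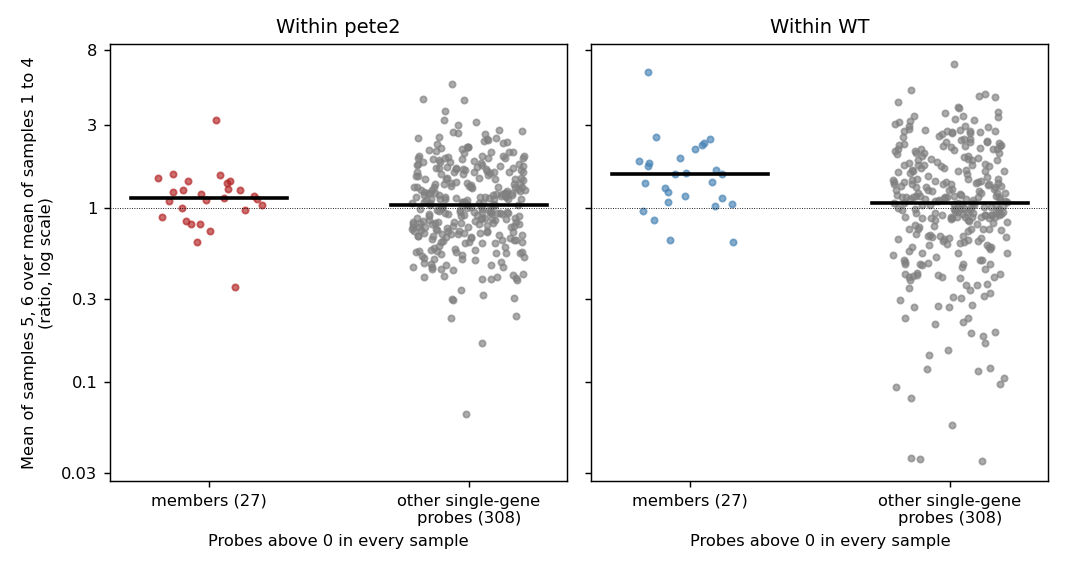
Mean of samples 5 and 6 over the mean of samples 1 to 4 (log scale) within pete2 on the left and within WT on the right, for the 27 members above 0 in every sample and the 308 other single-gene probes above 0, with a bar at each median. Within WT the members' bar lies at 1.56 and that of the other probes at 1.07, and within pete2 the bars lie at 1.13 and 1.04. All values are after quantile normalization.

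Other probes gave a further measure of a few of the same genes. For 6 members, another probe lists the gene together with 2 or 3 others, and at 0 of these 6 probes did the groups separate as in the rule. For AT4G32340 the shared probe had a median of 0.172 in pete2 and 0.291 in WT. For AT1G61990 the medians were 0.274 in pete2 and 0.267 in WT, for AT5G06990 they were 0.305 and 0.297, and for AT2G37420 they were 0.179 and 0.0695. The shared probe of AT3G50880 was at 0 in all 6 WT samples. Since these probes take RNA of several genes, they give no level of the member itself.

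The members lay on all 5 nuclear chromosomes, with 7 on chromosome 1, 9 on chromosome 2, 8 on chromosome 3, 6 on chromosome 4 and 9 on chromosome 5. The single-gene probes tested numbered 168, 118, 125, 115 and 137 on the same chromosomes. No members were adjacent in the RefSeq gene order. The nearest were AT4G15790 and DI21, with 12 protein-coding genes between them, and AT2G37420 and AT2G37580, with 15. A keyword search of RefSeq symbols and synonyms found GLDH as 1 of 7 oxidoreductases among the single-gene probes. No member was found among the 5 plastid genes, the 3 kinases or phosphatases, the 3 of transcription and DNA, the 3 of protein turnover and folding, or the 6 of lipids and cell wall, and the lists for transport, for RNA and translation and for genes with no function given held 0 probes. Most loci carry no such words, so these counts cover few genes and do not show that the members lack such roles. XERICO and IAA31, described above as a zinc finger protein and a repressor of auxin-responsive genes, were matched by no list.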

How the data were processed

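The authors deposited linear intensity values of 3439 probes, 1 per sample. How spots were scanned, background-corrected, averaged and scaled is not stated in the labels or headers used here. The deposited intensity values run from 0 to a ceiling of 100 that 2 to 7 probes share in every sample. No background level is given, and the number of arrays limits the precision. Samples were grouped by their titles. Gene names came from the platform annotation, in which 692 probes have 1 gene, 870 have several and 1877 are not listed; all 39 members matched the RefSeq annotation of TAIR10.1, used for names, chromosomes and gene order only.

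Intensities were quantile normalized over all probes with limma 3.58.1 (normalizeQuantiles) in R 4.3.3, and deposited zeros were set back to 0; the 118 probes with no sample above 0 do not enter the shares. Log2 differences are means of log2 intensities, pete2 minus WT, only for probes above 0 in every sample, so no floor or pseudocount was used. The SE comes from the spread within groups. The members, lists and rules were chosen with earlier results of these data known. Named genes are the 15 members above 0 with the widest separation, the 12 listed at 0, up to 4 further members of each keyword list and 3 genes on each side of the edge. The rule was tested on simulated data, but no outcome is given here and nothing is read from it. No sample pair of a group shared over 0.294% of its positive values exactly. A planned look at promoters and proteins was not run.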

Additional observations from a re-analysis of the deposited data

Results flagged for a closer look

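Among 73 groups of 6 member values with at most 1 zero, 2 had a sample far from the others, and chance gives about 1 in 20. For DI21 the lowest WT sample, number 4, lay 0.694 of the group's range from the nearest other, and for AT1G49850 the highest WT sample, number 5, lay 0.643 of the range away, both above Dixon's critical value for 6 samples. On the intensities as deposited the same gaps were 0.309 and 0.513 of the range, both below that value.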

How the results depend on the processing

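The count of 39 members was 60 on intensities as deposited, 59 without pete2 samples 5 and 6, 72 when consecutive numbers (1 with 2, 3 with 4, 5 with 6), which may be repeat measurements, were averaged, and 15 where the lowest WT value had to be 1.5 times the highest pete2 value. Leaving out single samples gave 39 to 45 members, a median log2 difference of -1.56 to -1.46 and 11 to 17 members at 0. That median, -1.51 as reported, was -2.07 as deposited and -1.69 with cyclic loess. Members at 0, 12 as reported, numbered 4 under the 1.5-fold rule. As a replicate block, pete2 had to lie below WT of the same number in each of the 6 numbers, which gave 63 genes, 22 of them at 0. The numbers were not taken as pairs, since the deviations of same-numbered samples correlated at 0.00380 to 0.334, not all above 0.1. As a hint from the data and not the design, pete2 samples 2 to 6 each correlated best with the WT sample of their own number, and pete2 sample 1 with WT sample 5. Dividing by sample medians gave 37 members, a filter on dim probes 37 and no tie rule 39. Cyclic loess, run on probes above 0 in all samples, gave 30, which were the 27 members above 0 and 3 further genes. Of 81 single-gene differences recomputed under these 3 other scalings (as deposited, sample medians, cyclic loess), 23 moved by more than the SD within groups and 0 changed sign. Of 378 with fewer or averaged samples, 0 moved so far, and their direction was fixed by the choice of members. Leaving out or averaging so few samples can hardly shift a mean by that SD. This count of 0 was therefore nearly fixed in advance and does not show that the sizes were stable. As deposited, 13 of the 27 differences moved by over 1.5 times. The causes were not tested. Probes at 0 and the unknown background limit what the dimmer members can show.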
